A study of Mus musculus with 8 samples.

Results

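Prdm16, Ppp1r1c, Tafa4, Ttn, Ndst4, Ptprt, Itpr2, Hmcn1 and 6330411D24Rik are 9 of the 33696 genes counted in single nuclei of the mouse retina. They were chosen by their levels in control retinal ganglion cell (RGC) nuclei, being higher where Piezo2 was detected than where it was not, so those control levels are given here as a description only. The rule stated no threshold. All 9 symbols were found, and all 9 passed the filter on low counts in each of the 6 comparisons tested.

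Nuclei came from retinae of female mice at 120 days of age on a C57BL/6J background and were sorted for the neuronal protein NeuN and the RGC protein RBPMS. The control group was Piezo2f/f, with both Piezo2 alleles floxed and no Cre, and gave 4 libraries. The cKO group was Olig2-cre;Piezo2f/f and also gave 4 libraries, numbered 10 to 13, each library of either group pooling 6 retinae. Cre was a knock-in within Olig2, so cKO mice also carried an altered Olig2 allele and Piezo2 deletion was directed at the oligodendrocyte lineage, not at RGCs. Pooling hides differences between animals, and p-values measure the spread between pools.

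Piezo2 forms a mechanically gated cation channel known for touch and body position sense. RGCs are the output neurons of the retina and fall into many types that differ in the genes they express. The 9 genes do not belong to a common pathway. Prdm16 is a zinc finger regulator of transcription, Ppp1r1c an inhibitor of protein phosphatase 1, Itpr2 a receptor channel that releases calcium from internal stores, and Ptprt a receptor tyrosine phosphatase of the adhesion-linked R2B type. Tafa4 is a secreted chemokine-like protein, Hmcn1 (hemicentin) an extracellular matrix protein, and Ndst4 an enzyme that modifies heparan sulfate chains. Ttn (titin) is the giant spring protein of the muscle sarcomere.

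On the GRCm39 build, all 9 were annotated as protein coding and lay on 5 chromosomes. Prdm16 (ENSMUSG00000039410) spanned chr4:154400581-154721625 on the minus strand, and 6330411D24Rik (ENSMUSG00000110067) spanned chr4:142325011-142801409 on the minus strand. Ppp1r1c (ENSMUSG00000034683) was at chr2:79538124-79648840 on the plus strand. Ttn (ENSMUSG00000051747) was at chr2:76534136-76812891 and Ptprt (ENSMUSG00000053141) at chr2:161363910-162503067, both on the minus strand. Tafa4 (ENSMUSG00000046500) was at chr6:96808164-97057174 and Itpr2 (ENSMUSG00000030287) at chr6:146009797-146403721, both on the minus strand. Ndst4 (ENSMUSG00000027971) was at chr3:125197722-125522549 on the plus strand and Hmcn1 (ENSMUSG00000066842) at chr1:150438275-150869200 on the minus strand. All 9 were long, with spans of 110717 to 1139158 bases against a median of 19200 over 21431 protein-coding genes of the files. Exons made up 42.2% of Ttn and between 0.329% and 5.26% of the other genes. Noncoding genes on the opposite strand that were counted in the files overlapped Prdm16 (4 genes), Ptprt (2) and Ttn, Itpr2 and Hmcn1 (1 each).

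RefSeq promoter sequence (GRCm38.p6, 250 bases before to 50 after the start) was found for 7 of the 9 genes, without Ndst4 and 6330411D24Rik. The promoters of Prdm16, Ppp1r1c, Hmcn1 and Ptprt are shown 5′ to 3′ on the gene's strand, since pairs of these genes had the highest and the lowest co-detection described further on. Capitals mark matches to GGGCGG (GC box, or CCGCCC on the other strand) and CAGCTG (E-box).
Prdm16, chr4:154636824-154637123, minus strand: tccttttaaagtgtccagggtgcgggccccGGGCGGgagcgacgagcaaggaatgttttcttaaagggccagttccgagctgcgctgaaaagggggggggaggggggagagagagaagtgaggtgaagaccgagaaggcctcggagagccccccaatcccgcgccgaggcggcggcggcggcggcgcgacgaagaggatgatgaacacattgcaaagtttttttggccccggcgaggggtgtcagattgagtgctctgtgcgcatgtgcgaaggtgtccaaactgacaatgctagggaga
Ppp1r1c, chr2:79707530-79707829, plus strand: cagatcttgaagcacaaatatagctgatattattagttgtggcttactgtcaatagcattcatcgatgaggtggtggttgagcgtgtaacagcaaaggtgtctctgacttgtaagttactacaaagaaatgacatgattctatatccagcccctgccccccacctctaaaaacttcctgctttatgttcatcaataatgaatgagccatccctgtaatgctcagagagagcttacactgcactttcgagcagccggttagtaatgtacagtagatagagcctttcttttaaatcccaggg
Hmcn1, chr1:150993386-150993685, minus strand: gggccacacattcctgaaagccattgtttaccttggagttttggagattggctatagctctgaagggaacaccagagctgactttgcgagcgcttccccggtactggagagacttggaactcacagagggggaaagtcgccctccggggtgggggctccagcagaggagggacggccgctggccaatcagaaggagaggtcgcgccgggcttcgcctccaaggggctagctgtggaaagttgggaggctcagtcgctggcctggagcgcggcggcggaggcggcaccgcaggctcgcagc
Ptprt, chr2:162661098-162661397, minus strand: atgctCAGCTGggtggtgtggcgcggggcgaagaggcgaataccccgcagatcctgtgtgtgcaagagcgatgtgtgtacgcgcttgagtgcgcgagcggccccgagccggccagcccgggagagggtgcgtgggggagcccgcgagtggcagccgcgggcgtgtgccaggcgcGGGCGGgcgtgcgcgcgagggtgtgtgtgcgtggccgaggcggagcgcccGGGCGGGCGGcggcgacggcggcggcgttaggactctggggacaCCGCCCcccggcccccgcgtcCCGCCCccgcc
The GC content was 61.0% for Prdm16, 42.0% for Ppp1r1c, 63.3% for Hmcn1 and 77.3% for Ptprt. The GC box was found in 3 of the 7 promoters (Prdm16, Ptprt and Itpr2) against 35.7% of 32851 promoters, and the E-box in that of Ptprt alone against 16.3%. Neither TATAAA (the core of the TATA element, 13.6% of all promoters) nor TAATTA (the homeodomain core, 5.29%) was found in any of the 7 on either strand. These matches describe letters in a window and were not read as binding sites.

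After quality filters 2211 to 5315 nuclei were kept per library, with median depths of 3650 to 9481 UMIs (unique molecules) per nucleus and 35697629 to 60088630 UMIs per library over all barcodes. Libraries shared at most 0.242% of their barcodes in any pair. Nuclei were assigned to classes by the number of distinct marker genes detected, which gave 18410 RGC nuclei (8726 control and 9684 cKO), 2569 amacrine, 1671 rod, 1424 bipolar, 1385 Müller glia, 413 cone and 149 horizontal cell nuclei. Levels are given as CPM, the share of a gene in all UMIs of the pooled nuclei of a library times 1000000. Piezo2 itself was at 17.7, 13.9, 15.3 and 12.0 CPM in control RGC nuclei and at 15.0, 13.4, 12.2 and 8.69 CPM in cKO RGC nuclei, which overlapped (log2 difference -0.32, SE 0.15, edgeR adjusted p = 0.992). Counts near the 3′ end do not show whether a floxed exon was removed, so these values do not check the genotype.

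In cKO libraries, whose values the rule did not use, all 9 were higher in RGC nuclei with a Piezo2 UMI than in those without. The list was drawn up with earlier results of these data known, so this comparison is not fully independent of it. The increases ran from a log2 fold change of 1.01 for Ndst4 to 2.31 for Hmcn1, with a median of 1.89 over the 9 genes against 0.00 over all genes tested. All 9 were called, which required an edgeR adjusted p below 0.05 and a log2 change of more than 0.5 in size. Of all 15722 genes tested 2.21% were called, 1.06% higher and 1.16% lower. Each of the 9 was higher in 4 of 4 libraries and the arms did not overlap. How many of all genes tested had arms without overlap was not counted, so this is a description only. The Piezo2-positive arm held 618 of 9684 cKO RGC nuclei.

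Prdm16 was at 23.0, 21.1, 23.9 and 27.6 CPM in Piezo2-positive nuclei of the cKO libraries, from 24 to 45 UMIs per library, and at 5.38 to 7.16 CPM in Piezo2-negative nuclei (log2 1.90, SE 0.17, edgeR adjusted p = 4.64e-05). Ppp1r1c was at 93.1, 99.4, 83.4 and 78.3 CPM against 17.7 to 24.5 CPM (log2 2.16, SE 0.11, edgeR adjusted p = 3.99e-07). For both of these intracellular regulators the lowest positive arm stood above the highest negative arm by more than the spread among libraries. Itpr2 was at 118, 109, 105 and 158 CPM against 30.5 to 37.6 CPM (log2 1.88, SE 0.13, edgeR adjusted p = 6.57e-06), with cKO library 13 the highest. Ptprt was at 156, 133, 176 and 162 CPM against 43.0 to 61.4 CPM (log2 1.69, SE 0.14, edgeR adjusted p = 3.77e-05). For Ptprt the highest Piezo2-negative arm was also that of library 13. In empty droplets of cKO libraries, which show the level of free RNA, Prdm16 was at 7.01 to 12.9 CPM. Ptprt was at 26.4 to 66.6 CPM there and Itpr2 at 21.1 to 34.8 CPM. The mean Piezo2-negative level of Prdm16 (6.54 CPM) was below this range. Those of Ptprt (49.6 CPM) and Itpr2 (33.9 CPM) lay within theirs, so the sizes of these 3 folds are uncertain.

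Tafa4, whose product is secreted, was at 36.6, 34.3, 46.2 and 57.0 CPM in the Piezo2-positive arms and at 10.7 to 13.0 CPM in the negative arms (log2 1.89, SE 0.18, edgeR adjusted p = 7.06e-05). The matrix gene Hmcn1 was at 122, 144, 114 and 148 CPM against 23.2 to 32.0 CPM (log2 2.31, SE 0.12, edgeR adjusted p = 3.99e-07), the largest change of the 9. The heparan sulfate enzyme gene Ndst4 was at 265, 326, 337 and 254 CPM against 134 to 170 CPM (log2 1.01, SE 0.10, edgeR adjusted p = 0.000123), the smallest. For all 3 of these genes the lowest positive arm stood above the highest negative arm. Ttn was at 187, 148, 171 and 147 CPM against 27.2 to 50.6 CPM (log2 2.10, SE 0.16, edgeR adjusted p = 1.19e-05). Its negative arms varied most relative to their mean, from library 13 at the low end to library 10 at the high end. 6330411D24Rik was at 1862, 1704, 1843 and 1635 CPM against 687 to 773 CPM (log2 1.28, SE 0.08, edgeR adjusted p = 1.25e-06).

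**Figure D1:**
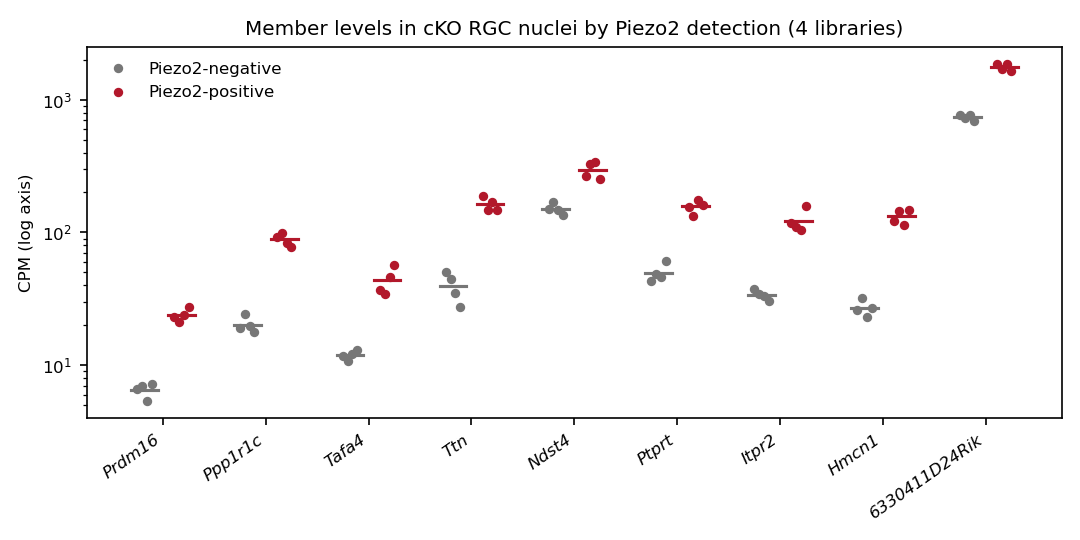
Levels of the 9 genes in cKO RGC nuclei with and without a Piezo2 UMI. The y axis is CPM on a log axis, each point is 1 of 4 libraries and each line the mean, and for every gene the 4 red points (Piezo2-positive) lie above the 4 grey points (Piezo2-negative).

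In control libraries, where the genes were chosen, the corresponding means over 4 libraries were 39.3 ± 7.15 (SD) and 5.67 ± 0.464 CPM for Prdm16, 103 ± 8.54 and 20.7 ± 1.98 CPM for Ppp1r1c, and 53.8 ± 8.03 and 11.1 ± 0.620 CPM for Tafa4. The means were 153 ± 30.1 and 31.6 ± 4.61 CPM for Ttn, 359 ± 19.7 and 161 ± 4.35 CPM for Ndst4, and 158 ± 11.6 and 47.3 ± 2.87 CPM for Ptprt. Itpr2 was at 127 ± 10.2 and 33.7 ± 4.67 CPM, Hmcn1 at 132 ± 25.3 and 24 ± 10.1 CPM, and 6330411D24Rik at 1972 ± 81.5 and 750 ± 26.4 CPM. These values restate the choice and carry no test.

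A Piezo2 UMI is found more readily in a deep nucleus. Averaged over libraries, the median depth was 8764 UMIs for Piezo2-positive and 7133 UMIs for Piezo2-negative cKO nuclei. Piezo2 was detected in 6.34 ± 0.817% (SD, n = 4) of cKO RGC nuclei, 2.24% of amacrine nuclei and 0.219% of Müller glia nuclei, and in 2.13%, 0.991% and 0.129% after each nucleus was thinned to 2000 UMIs. Median depths per library were 4968 to 9125 UMIs in cKO RGC nuclei, 3981 to 7169 in amacrine nuclei and 1668 to 3147 in Müller glia nuclei. Thinning, with Piezo2 status read from the thinned counts, left 61 genes called in all, against 348 before. All 9 genes were still higher in the positive arm but 6 were called. The other three were Prdm16 (log2 2.01, edgeR adjusted p = 0.0672), Tafa4 (log2 1.21, edgeR adjusted p = 0.660) and Ptprt (log2 1.03, edgeR adjusted p = 0.317). With the library as a block, 9 of 9 genes were called again, among 613 genes in all (3.9%, with 1.59% higher and 2.31% lower) against 348 without it.

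Markers of other cells of the tissue gave the following values beside this contrast, and their part in the result was not tested. The 8 Müller glia markers summed to 73.9 to 118 CPM in Piezo2-positive and 74.6 to 128 CPM in Piezo2-negative arms of the cKO libraries, with 1 of 8 higher in the positive arm and none at 0. The 10 amacrine markers summed to 67.6 to 108 against 134 to 161 CPM, with 3 of 10 higher and 1 (Slc18a3) at 0 in the positive arms. The 10 bipolar markers summed to 127 to 174 against 181 to 210 CPM, with 3 of 10 higher and 1 (Vsx1) at 0. The amacrine and bipolar sums were thus lower in the positive arms without overlap. The 5 oligodendrocyte markers summed to 25.5 to 33.8 against 18.1 to 25.6 CPM, with 3 of 5 higher and Mobp at 0, and most of this sum was Mbp (24.7 against 15.9 CPM). The 4 horizontal cell markers summed to 250 to 284 against 235 to 286 CPM, with 2 of 4 higher, among them Calb1 (69.5 to 99.7 against 34.6 to 46.2 CPM). The astrocyte marker Aldh1l1 was at 2.13 to 4.45 against 0.780 to 2.00 CPM, from 18 UMIs in the positive arms, where Pax2 had 1 UMI and Gfap none. The 8 rod markers summed to 286 to 541 against 330 to 608 CPM, with 0 of 8 higher. The 10 RGC markers summed to 2235 to 2574 against 2293 to 2756 CPM, with 4 of 10 higher.

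The 9 genes were next followed over RGC types, each gated by at least 2 UMIs of 1 gene that is not among them. Chrm2, the M2 muscarinic acetylcholine receptor gene, gated 579 cKO nuclei, and these held 19.6 to 28.7% of the Piezo2-positive nuclei per library and 3.95 to 5.56% of the Piezo2-negative nuclei. Chrm2 was chosen as a gate for types with most Piezo2, and the paper reported it as enriched in Piezo2-positive control RGCs. The gate and the 9 genes thus came from the same control contrast. High levels in the Chrm2 gate are therefore not independent of the choice of the genes. For 7 of the 9 genes the Chrm2 gate had the highest mean level of all gates in cKO. The exceptions were Ndst4, highest with the transcription factor gene Zic1 (601 ± 114 CPM, SD, n = 4), and Ptprt, highest with the melanopsin gene Opn4 (mean 252 CPM, 4 libraries). Levels of Chrm2-gated nuclei did not overlap those of the next gate for Prdm16, Ttn, Itpr2 and 6330411D24Rik. They did overlap the next gate for Ppp1r1c, Tafa4 and Hmcn1. How many of all genes were highest in the Chrm2 gate, or did not overlap the next gate, was not counted. The Zic1, Opn4 and Eomes gates were small, with 96, 115 and 83 cKO nuclei in all. For Prdm16, single libraries of the lower-ranked Opn4 gate (0 to 20.8 CPM) and Zic1 gate (0 to 16.0 CPM) reached into the Chrm2 range of 13.6 to 26.5 CPM.

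The order below the Chrm2 gate differed among the genes. Spp1, which marks alpha-type RGCs, was the next gate for Ppp1r1c (62.6 ± 11.9 CPM), Ttn (54.5 ± 8.73), Itpr2 (44.9 ± 5.92) and 6330411D24Rik (1165 ± 71.0). Prdm16 and Tafa4 had their next level, 11.2 ± 0.482 and 20.8 ± 3.51 CPM, in nuclei that passed no type gate. Hmcn1 came next with the Neurod2 gate at 66.8 CPM, a gate of 22 nuclei in all. For Ndst4 the Zic1 gate overlapped the Chrm2 gate (430 ± 97.0 CPM), which in turn overlapped the Opn4 gate (333 ± 56.7 CPM). For Ptprt the Opn4 gate overlapped the Eomes gate (192 ± 83.7 CPM), which overlapped the Chrm2 gate (110 ± 40.0 CPM). Eomes and Opn4 both mark intrinsically photosensitive RGCs, so Ptprt and Ndst4 were high in those nuclei too, where Prdm16 (4.31 and 7.83 CPM), Ppp1r1c (4.52 and 10.1 CPM) and Tafa4 (2.22 and 4.97 CPM) were not above their level in all cKO RGC nuclei (7.85, 25.5 and 14.3 CPM). Hmcn1 also had higher means there, at 53.8 and 52.4 CPM against 35 ± 4.21 CPM in all cKO RGC nuclei, with libraries from 0 to 93.8 CPM in the Eomes gate.

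**Figure D2:**
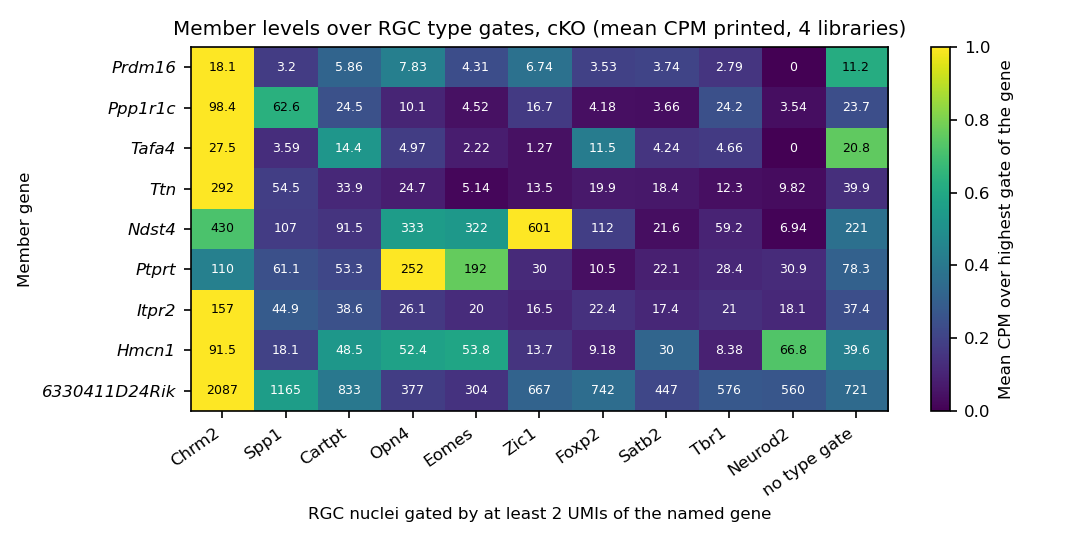
Mean level over the 4 cKO libraries of each gene (rows) in RGC nuclei gated by 1 type gene (columns). The number in each cell is the mean CPM and the color is that mean over the highest mean of the gene, which is the Chrm2 column for 7 genes, Zic1 for Ndst4 (601) and Opn4 for Ptprt (252).

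Against all other cKO RGC nuclei, the Chrm2 gate was higher for all 9 genes (of 15742 genes tested 3.21% were called, 1.37% higher and 1.84% lower), with a median log2 fold change of 1.58 against -0.01 over all genes. Chrm2 and the 9 genes came from the same control contrast, so this result does not stand apart from their choice. Ttn led, at 342, 344, 298 and 184 CPM in Chrm2-gated nuclei against 22.8 to 40.1 CPM elsewhere (log2 3.28, SE 0.20, edgeR adjusted p = 1.33e-06). Itpr2 varied least, at 160, 158, 161 and 147 CPM against 28.7 to 35.5 CPM (log2 2.34, SE 0.09, edgeR adjusted p = 1.18e-08). Ppp1r1c was at 97.4, 118, 108 and 70.4 CPM against 17.6 to 24.8 CPM (log2 2.33, SE 0.15, edgeR adjusted p = 2.23e-06). For Ttn and Ppp1r1c, library 13 was the lowest of the 4 in the gate. 6330411D24Rik showed the same order with 1529 CPM in library 13 and 2224 to 2354 CPM in the others against 684 to 762 CPM (log2 1.56, SE 0.11, edgeR adjusted p = 4.88e-06). Ndst4 was at 372, 555, 455 and 337 CPM against 126 to 159 CPM (log2 1.63, SE 0.13, edgeR adjusted p = 9.07e-06).

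The other 4 genes were likewise higher with the Chrm2 gate. Hmcn1 was at 67.4, 120, 73.3 and 105 CPM against 26.6 to 35.6 CPM (log2 1.58, SE 0.16, edgeR adjusted p = 9.70e-05). Prdm16 was at 15.0, 17.5, 13.6 and 26.5 CPM against 6.23 to 7.57 CPM, from 15 to 35 UMIs per library in the gate (log2 1.39, SE 0.22, edgeR adjusted p = 0.00258). None of these arms overlapped, but how many of all genes tested had such arms was not counted. Ptprt was at 83.9, 78.1, 112 and 166 CPM against 50.9 to 59.9 CPM (log2 1.09, SE 0.20, edgeR adjusted p = 0.0081), and Tafa4 at 16.5, 28.0, 26.1 and 39.3 CPM against 11.5 to 13.9 CPM (log2 1.08, SE 0.22, edgeR adjusted p = 0.0133). In contrast to Ttn and Ppp1r1c, library 13 was the highest of the 4 for Prdm16, Ptprt and Tafa4. Outside the gate the means of Prdm16 (7.07 CPM), Ptprt (53.8 CPM) and Itpr2 (31.8 CPM) lay within the empty-droplet ranges given above. The sizes of these folds are therefore uncertain.

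The calls for Tafa4, Ptprt and Prdm16 depended on the processing. The call for Tafa4 was lost without cKO replicate 11 (edgeR adjusted p = 0.0895), 12 (0.113) or 13 (0.0839), with another step for calling nuclei (log2 0.89, edgeR adjusted p = 0.0593), and with Piezo2-positive nuclei left out (log2 0.97, edgeR adjusted p = 0.0977). The call for Ptprt was lost without cKO replicate 12 (edgeR adjusted p = 0.111). With nuclei thinned to 2000 UMIs and the gate read from the thinned counts, 327 genes were called in all, against 505 before. Of the 9 genes 6 kept their call, Tafa4 and Ptprt were not called, and Prdm16 turned to -0.27 (edgeR adjusted p = 0.956). The library block gave 9 of 9 calls, among 795 genes in all (5.05%, with 1.89% higher and 3.16% lower) against 505 without it. Chrm2-gated nuclei were also deeper, with median depths that averaged 8584 against 7148 UMIs over libraries.

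Marker sums of other cells moved with the Chrm2 gate as well, and their part in the result was not tested. The 10 amacrine markers summed to 80.9 to 101 CPM in the gate against 134 to 160 CPM elsewhere, with 3 of 10 higher in the gate and Slc18a3 at 0. The 4 horizontal cell markers summed to 223 to 232 against 237 to 288 CPM, with 1 of 4 higher and the defining marker Lhx1 at 0. The 5 oligodendrocyte markers summed to 25.6 to 40.7 against 18.2 to 24.7 CPM. Of these 1 was higher in the gate, Mbp (28.0 against 15.7 CPM), while Mag and Mobp were at 0. The 8 Müller glia markers overlapped, at 75.6 to 111 against 74.5 to 129 CPM.

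The Chrm2 gate was also crossed with Piezo2 detection, given here as means over the 4 cKO libraries without a test. No spread over libraries is given, so smaller differences, such as those of Ppp1r1c and Prdm16, are uncertain. In nuclei with a Piezo2 UMI outside the Chrm2 gate (466 nuclei), Prdm16 was at 23.2 CPM, Tafa4 at 44.1, Hmcn1 at 124 and Ptprt at 159 CPM. In Chrm2-gated nuclei without a Piezo2 UMI (427 nuclei), the same 4 genes were lower, at 15.0, 21.7, 68.1 and 95.5 CPM. The reverse was seen for Ttn (88.4 against 263 CPM), Itpr2 (89.2 against 138), Ppp1r1c (68.1 against 80.8), Ndst4 (244 against 427) and 6330411D24Rik (1389 against 1809). In nuclei with neither (8639 nuclei), the levels were 6.04 CPM for Prdm16, 11.4 for Tafa4, 24.8 for Hmcn1, 47.0 for Ptprt, 26.9 for Ttn, 28.0 for Itpr2, 16.9 for Ppp1r1c, 135 for Ndst4 and 682 for 6330411D24Rik.

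Foxp2 marks another large group of RGC types and gated 1607 cKO nuclei. In these nuclei 7 of the 9 genes were lower than in all other cKO RGC nuclei, while of 15857 genes tested 8.19% were called, 5.05% lower and 3.13% higher. Ppp1r1c was at 2.29 to 6.53 CPM against 24.8 to 33.6 CPM (log2 -2.82, SE 0.20, edgeR adjusted p = 1.80e-06), and Ptprt at 3.81 to 15.1 CPM against 60.6 to 77.8 CPM (log2 -2.69, SE 0.27, edgeR adjusted p = 3.12e-05). Hmcn1 was at 5.71 to 12.5 CPM against 34.0 to 44.7 CPM (log2 -2.10, SE 0.19, edgeR adjusted p = 1.24e-05). The phosphatase inhibitor, the receptor phosphatase and the matrix gene thus had the largest log2 falls of the 9. In empty droplets of cKO libraries Ppp1r1c was at 6.17 to 7.58 CPM, Ptprt at 26.4 to 66.6 CPM and Hmcn1 at 6.14 to 18.3 CPM. The gated means of Ppp1r1c, Ptprt and Prdm16 (3.53 against 7.01 to 12.9 CPM) were below empty droplets. Those of Hmcn1, Ttn and Itpr2 lay within the range of empty droplets, so the sizes and order of these folds are uncertain. Ttn fell by 1.46 (SE 0.27, edgeR adjusted p = 0.0033), Prdm16 by 1.34 (SE 0.24, edgeR adjusted p = 0.00315), Itpr2 by 0.96 (SE 0.11, edgeR adjusted p = 7.14e-05) and Ndst4 by 0.57 (SE 0.08, edgeR adjusted p = 0.000645) on the log2 scale. Tafa4 (log2 -0.34, SE 0.18, edgeR adjusted p = 0.367) and 6330411D24Rik (log2 -0.15, SE 0.07, edgeR adjusted p = 0.311) were not called. Thinning removed the calls for Prdm16 (log2 -0.90, edgeR adjusted p = 0.345) and Ndst4 (log2 -0.38, edgeR adjusted p = 0.127), and Ndst4 was at -0.49 without cKO replicate 11, below the fold threshold. Beside this contrast the 4 horizontal cell markers summed to 171 to 207 CPM in the Foxp2 gate against 248 to 296 CPM elsewhere. The 8 rod markers summed to 346 to 722 against 324 to 585 CPM, with 7 of 8 higher in the gate, and the 8 cone markers to 21.1 to 28.6 against 17.3 to 28.4 CPM, with 6 of 8 higher. Foxp2-gated nuclei were also shallower, with median depths that averaged 6518 against 7390 UMIs over libraries. The part of these differences in the result was not tested.

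Outside RGCs the 9 genes followed several patterns. RGC nuclei had the highest mean of the 7 classes for Prdm16, Ppp1r1c, Ttn and 6330411D24Rik, and for 6330411D24Rik the RGC libraries lay above those of every other class in both genotypes. For Ttn they overlapped the bipolar libraries (34.9 to 63.0 against 13.4 to 45.8 CPM in cKO). For Prdm16 the control mean of 8.57 CPM was close to that of rods (8.03 CPM, from 0 to 32.1). For Ppp1r1c in cKO a horizontal cell library reached 27.6 CPM, within the 21.5 to 30.0 CPM of RGC nuclei. Tafa4 was highest in Müller glia, the radial glia of the retina, at 174, 177, 249 and 236 CPM in cKO and 237, 202, 227 and 127 CPM in control libraries, against 14.3 ± 1.44 and 14.8 ± 0.741 CPM (SD, n = 4) in RGC nuclei. Itpr2 was also highest there, at 181 ± 28.3 CPM in cKO, with rods next at 144 ± 21.8 CPM and RGC nuclei at 40.5 ± 3.03 CPM. Neither gene was therefore highest in RGCs, although both rose with Piezo2 within them. Ptprt was highest in horizontal cells, at 1532, 1158, 1753 and 1716 CPM in the cKO libraries, with 1 to 42 such nuclei per library. Amacrine cells came next for Ptprt at 198 ± 36.9 CPM, against 57.9 ± 6.70 CPM in RGC nuclei. Hmcn1 was highest in amacrine cells at 160 ± 40.3 CPM against 35 ± 4.21 CPM in RGC nuclei. Ndst4 was highest in horizontal cells, at 221, 274, 809 and 252 CPM in cKO, where the value of 809 came from a library with 1 horizontal nucleus, against 161 ± 16.2 CPM in RGC nuclei.

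Barcodes in the range of empty droplets gave the level of free RNA, measured the same way. Ppp1r1c was at 25.5 ± 3.55 CPM (SD, n = 4) in cKO RGC nuclei against 6.17 to 7.58 CPM in empty droplets, and 6330411D24Rik at 819 ± 55.4 against 38.0 to 89.7 CPM. Prdm16 was at 7.85 ± 0.742 CPM in all cKO RGC nuclei, within the 7.01 to 12.9 CPM of empty droplets, and rose above that range in the Piezo2-positive and Chrm2-gated nuclei given before. Its level in amacrine nuclei was lower than in empty droplets, at 3.05 ± 1.55 CPM. Ptprt in cKO RGC nuclei lay within the range of empty droplets as well (26.4 to 66.6 CPM) except in library 13, and the other 7 genes were above every empty-droplet pool of their genotype. In control libraries all but Prdm16 were above every pool.

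**Figure D3:**
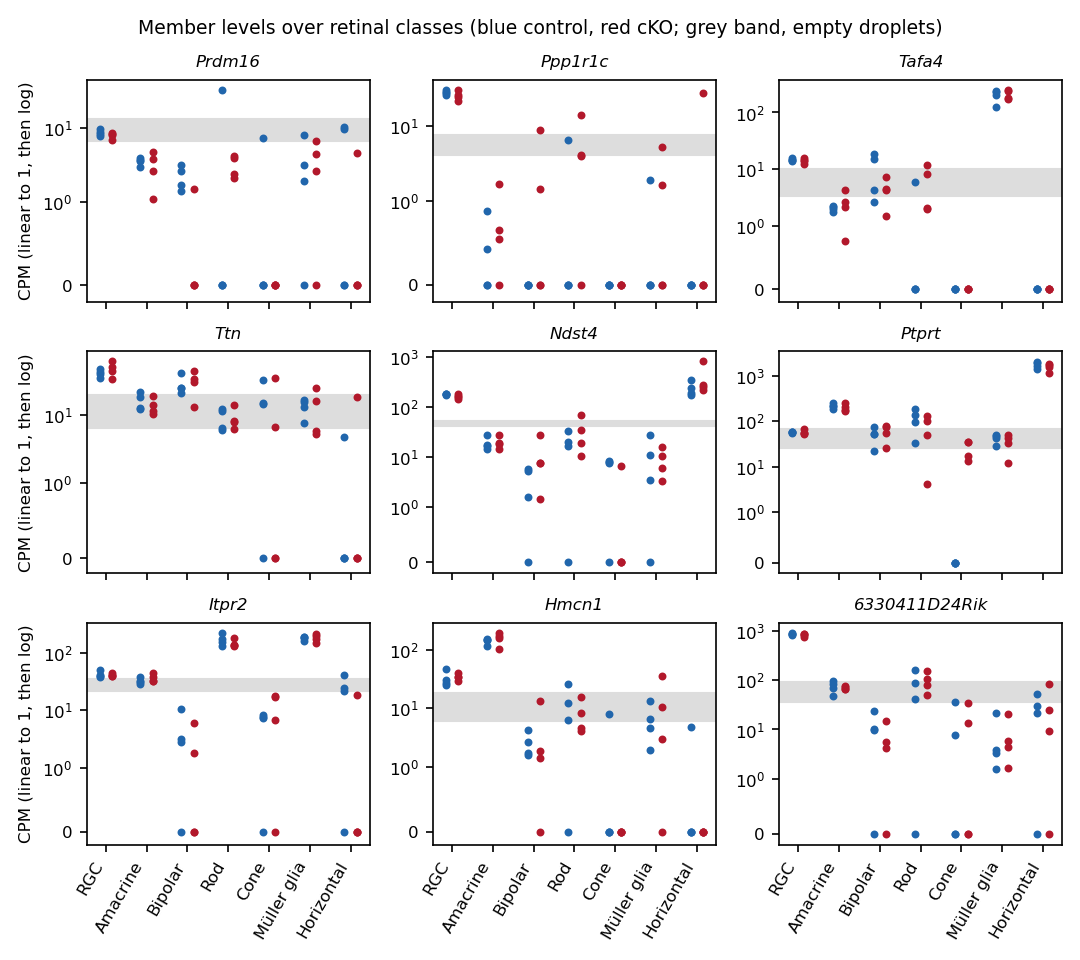
Levels of each gene in 7 retinal classes, 1 panel per gene, with CPM on an axis that is linear to 1 and logarithmic above. Points are single libraries (4 control in blue, 4 cKO in red) and the grey band is the range of empty droplets, which holds the RGC points of Prdm16 but lies below those of Ppp1r1c.

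RGC nuclei were compared with amacrine nuclei, the next most numerous neurons, over all 8 libraries. The control libraries among them hold the RGC nuclei in which the genes were chosen. In a fit of the cKO libraries alone, each of the 9 genes kept its direction and its call or lack of a call. Of the 9 genes 6 were higher in RGC nuclei and 2 were lower, while of 15720 genes tested 28.3% were called, 14.4% higher and 13.9% lower. Ppp1r1c differed most, at 25.5 ± 3.55 CPM against 0.725 ± 0.710 CPM in cKO libraries (log2 5.50, SE 0.23, edgeR adjusted p = 2.70e-15). Its amacrine level rests on 7 UMIs in cKO and 3 in control libraries, with 0 in some libraries of both and all below empty droplets, so the size of this fold is uncertain. 6330411D24Rik (log2 3.61, SE 0.10, edgeR adjusted p = 1.06e-18), Ndst4 (log2 3.23, SE 0.11, edgeR adjusted p = 3.77e-17) and Tafa4 (log2 2.69, SE 0.17, edgeR adjusted p = 4.61e-12) followed. Ttn (log2 1.67, SE 0.14, edgeR adjusted p = 5.43e-10) and Prdm16 (log2 1.39, SE 0.17, edgeR adjusted p = 3.39e-07) were the smallest increases. The mean amacrine levels of Ndst4 (19.7 against 40.9 to 52.9 CPM in empty droplets of cKO libraries), Tafa4 (2.46 against 3.41 to 9.71 CPM) and Prdm16 (3.05 against 7.01 to 12.9 CPM) were also below empty droplets, and those of Ttn (13.8 against 9.78 to 20.2 CPM) and 6330411D24Rik (70.6 against 38.0 to 89.7 CPM) lay within their range, so the sizes and order of these folds are uncertain too. Hmcn1 (log2 -2.09, SE 0.12, edgeR adjusted p = 1.17e-12) and Ptprt (log2 -1.77, SE 0.09, edgeR adjusted p = 6.76e-14) were lower in RGC nuclei. Itpr2 was at a log2 difference of 0.32 (SE 0.09, edgeR adjusted p = 0.0034), below the fold threshold.

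Whether the 9 genes were found in the same nuclei was described by co-detection, the number of cKO RGC nuclei with a UMI of both genes over the number expected from each gene alone within library and depth decile. Over the 36 pairs the median ratio was 1.36, 33 pairs were over 1, 29 were over 1 in every library, and 8 were over 2. The median was 1.33 in control libraries, where the genes were chosen. All 9 were chosen for being higher in the same kind of nuclei, those with Piezo2. Ratios over 1 among them are therefore not independent of that choice. How many pairs of all genes were over 1, or over 1 in every library, was not counted. The 36 pairs share genes and nuclei and are not independent, so these ratios carry no test.

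Prdm16 was found with Hmcn1 in 117 nuclei against 35.8 expected (ratio 3.27, 1.75 to 4.52 over libraries) and with Ppp1r1c in 121 against 40.5 (2.99). Ppp1r1c was found with Ttn in 464 nuclei against 199 expected (2.33). Itpr2 was found with Prdm16 in 142 nuclei against 68.8 expected (2.06) and with Ppp1r1c in 490 against 237 (2.07). The pair of Tafa4 and Ptprt was found in 238 nuclei against 89.9 expected (2.65). Both also went with Hmcn1, Tafa4 in 164 against 63.6 (2.58) and Ptprt in 284 against 122 (2.33). By contrast, Prdm16 was below expectation with Ptprt (33 against 46.9, ratio 0.703) and with Tafa4 (19 against 24.5, ratio 0.776), and Ptprt with Itpr2 (217 against 248, ratio 0.876). Tafa4 and Itpr2 were at 1.00. Hmcn1 had ratios over 2 with Prdm16 as well as with Tafa4 and Ptprt.

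Fewer pairs were far above expectation among the 618 cKO RGC nuclei with a Piezo2 UMI, a subset chosen after the data were seen. Of the 36 pairs 28 were over 1 and 2 were over 2. Tafa4 and Ptprt were together in 75 of these nuclei against 32.9 expected (ratio 2.28), and Prdm16 and Hmcn1 in 42 against 19.4 (2.16). The other pairs named above were lower than in all cKO RGC nuclei, at 1.76 for Prdm16 and Ppp1r1c, 1.52 for Ppp1r1c and Ttn, 1.63 for Prdm16 and Itpr2, 1.52 for Ppp1r1c and Itpr2, 1.81 for Tafa4 and Hmcn1 and 1.83 for Ptprt and Hmcn1. Prdm16 and Ptprt were together in 3 nuclei against 13.3 expected (0.226), and Prdm16 and Tafa4 in 4 against 8.90 (0.450). In control nuclei with a Piezo2 UMI, also 618, Tafa4 and Ptprt were together in 74 against 32.5 expected, Prdm16 and Hmcn1 in 71 against 32.7, Prdm16 and Ptprt in 5 against 19.0, and Prdm16 and Tafa4 in 4 against 15.1. The median over the 36 pairs was 1.15 in this cKO subset. Among Piezo2-positive nuclei, Prdm16 was thus seldom found with Ptprt or Tafa4. The small counts of the rarest pairs leave their exact ratios uncertain.

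**Figure D4:**
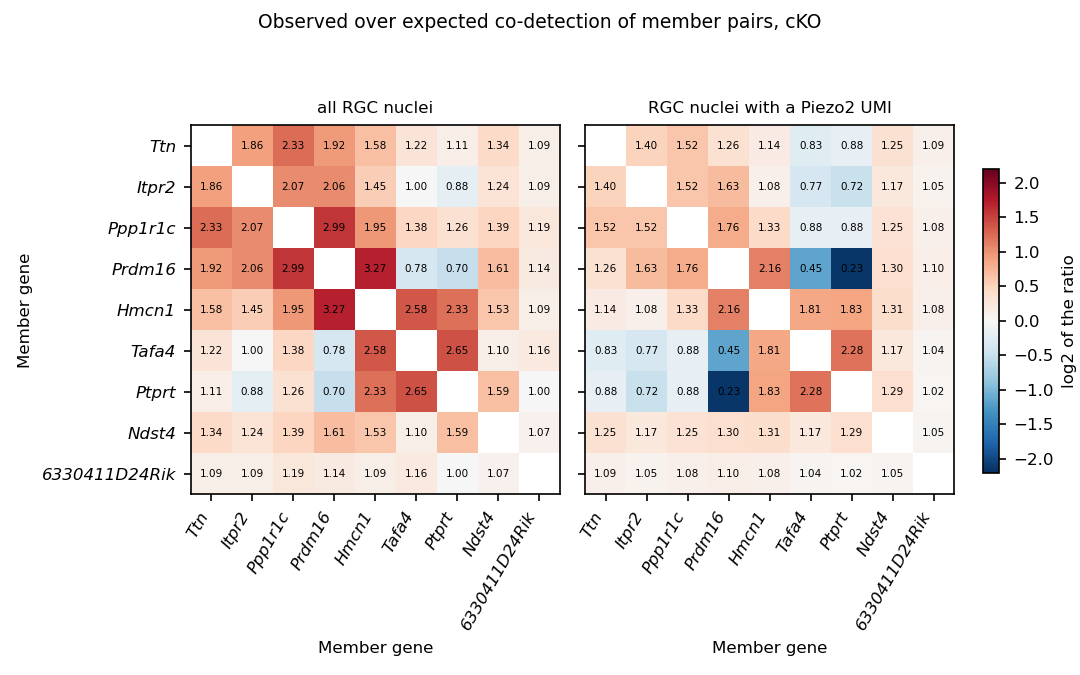
Observed over expected co-detection for each pair of the 9 genes, in all cKO RGC nuclei (left) and in those with a Piezo2 UMI (right). Red cells are over 1 and blue cells under 1, with the ratio printed, and Prdm16 is under 1 with Ptprt (0.703 and 0.226) where Tafa4 is over 1 with it (2.65 and 2.28).

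Piezo2 itself, within depth deciles, was found together with each of the 9 genes more often than expected in all 4 cKO libraries. The ratios were 2.75 for Hmcn1, 2.69 for Prdm16, 2.64 for Ppp1r1c, 2.22 for Tafa4, 2.21 for Ttn, 2.02 for Itpr2, 1.55 for Ndst4, 1.45 for Ptprt and 1.15 for 6330411D24Rik. A ratio is bounded when a gene is detected in most nuclei, and 6330411D24Rik had no ratio over 2 with any gene. How often Piezo2 was found above expectation with all genes was not counted, so its ratios have no background here. For the 9 genes themselves, the median ratio with all genes expected in at least 5 nuclei lay between 1.00 and 1.02. At most 0.291% of genes were over 2 with any of the 9. Since the 9 were chosen together, their ratios with each other are not independent of that choice. Of the 8 other listed genes, 3 were over 2 for Prdm16, Ppp1r1c and Hmcn1, 2 for Tafa4, Ptprt and Itpr2, and 1 for Ttn, while none was for Ndst4 and 6330411D24Rik.

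The genes outside the list with the highest co-detection ratios in cKO RGC nuclei were also found. For Prdm16 these were Arhgef5 (38 nuclei against 5.14 expected, ratio 7.40) and the nuclear receptor gene Nr4a2 (37 against 5.67, 6.53). For Ppp1r1c they were the matrix gene Postn (36 against 7.19, 5.01) and the amino acid transporter gene Slc7a2 (96 against 23.3, 4.12), and Postn came up again for Hmcn1 (5.28) and Itpr2 (3.78). For Ttn they were Prokr1, a prokineticin receptor gene (66 against 16.1, 4.09), and the noncoding 9330158H04Rik (3.90). Several partners were noncoding neighbours. Hmcn1 went most with Gm20631 (413 against 63.9, 6.46), which lies inside it on the opposite strand, and Ptprt with 9430021M05Rik (38 against 8.07, 4.71), which overlaps its start on the opposite strand, then with Itih5 (4.37). Gm57100, which overlaps the start of Prdm16 on the opposite strand, was the first partner of Itpr2 (4.21) and Ndst4 (2.58), and Gm11729 (2.35) was the second of Ndst4. For 6330411D24Rik the highest ratios were 1.42 (Gm48845) and 1.41 (Gm13133), each from 8 nuclei.

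Tafa4 went most with Slc1a3, a glutamate transporter gene of Müller glia (79 nuclei against 21.0 expected, ratio 3.76), and with Gm49542 (3.55). Since Tafa4 is high in Müller glia, other markers of these cells were read in the same nuclei. Slc1a3 was at 18.2 CPM in Tafa4-positive and 3.22 CPM in Tafa4-negative cKO RGC nuclei. Of the 8 Müller glia markers 3 had a higher mean with Tafa4, namely Slc1a3, Aqp4 (4.79 against 3.03 CPM) and Kcnj10 (0.927 against 0.695 CPM), and for Aqp4 and Kcnj10 the ranges overlapped. Among the other 5, Rlbp1 (4.62 against 6.10 CPM), Glul (24.2 against 29.6 CPM) and Apoe (14.2 against 21.5 CPM) had lower means. The sum of the 8 ranged from 66.7 to 112 against 75.5 to 128 CPM over libraries.

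Markers of other cells moved with Tafa4 without overlap, and their part in the result was not tested. The astrocyte marker Aldh1l1 was at 4.70 to 6.67 against 0.564 to 1.67 CPM, while Gfap was at 0 in Tafa4-positive nuclei. The 4 horizontal cell markers summed to 309 to 367 against 228 to 280 CPM, with 1 of 4 higher, the calcium-binding protein gene Calb1 (158 against 34.9 CPM). The 5 oligodendrocyte markers summed to 32.3 to 41.8 against 17.8 to 24.6 CPM, with 3 of 5 higher, mostly Mbp (29.9 against 15.5 CPM), and with Mog and Mobp at 0. The 10 amacrine markers were lower, at 79.9 to 97.9 against 136 to 161 CPM.

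Relatives of the 9 genes were read by role in 8 lists, of which 61 genes were tested for Piezo2 status in the cKO libraries. Of these 6 were called higher (9.84%) and 6 lower (9.84%), against 1.06% and 1.16% of all genes tested. With the library as a block, 7 were higher (11.5%) and 7 lower (11.5%), against 1.59% and 2.31% of all genes. The genes called higher include Chrm1, which was already known from control RGCs, as given below. No other PRDM gene was called higher of 7 tested, and Prdm8 was lower (log2 -1.63, SE 0.29, edgeR adjusted p = 0.0081). None of 7 phosphatase 1 inhibitors and catalytic subunits, none of 5 giant sarcomere genes beside Ttn and neither of 2 hemicentin and fibulin genes tested was called. These counts were the same with the block. Of 4 TAFA genes 1 was higher (Tafa2, log2 0.59), and of 3 R2B phosphatases 1 was lower (Ptprm, log2 -0.61).

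Of 21 genes of heparan sulfate synthesis and editing, 2 were higher with Piezo2 and 3 lower, with a median log2 fold change of 0.12 against 0.00 over all genes. The 3-O-sulfotransferase genes Hs3st3a1 (log2 1.82, SE 0.25, edgeR adjusted p = 0.00109) and Hs3st3b1 (log2 1.09, SE 0.12, edgeR adjusted p = 0.000332) rose beside Ndst4. Hs6st3 (log2 -1.16), the sulfatase gene Sulf2 (log2 -1.0) and Hs3st4 (log2 -0.61) fell. With the block Extl2 was called too (log2 0.57, SE 0.10, edgeR adjusted p = 0.000193, against 0.300 without it). Of 12 tested genes from muscarinic receptors to calcium stores, 3 were higher, namely the receptor gene Chrm1 (log2 2.46, SE 0.27, edgeR adjusted p = 0.000212), the ryanodine receptor gene Ryr3 (log2 1.31, SE 0.09, edgeR adjusted p = 3.82e-06) and Itpr1 (log2 0.59). Chrm3 was lower (log2 -0.88), and the median over the 12 was 0.10. The paper reported Chrm1, like Chrm2, as enriched in Piezo2-positive control RGCs. The call for Chrm1 and its share in the counts of relatives are therefore not independent of that earlier result. With the block the G protein gene Gna14 was also called lower (log2 -3.26, SE 0.70, edgeR adjusted p = 0.00148, against 0.0655 without it).

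In Chrm2-gated nuclei 8 of 61 tested relatives were called higher (13.1%) and 4 lower (6.56%), against 1.37% and 1.84% of all genes. The genes Hs3st3a1 (log2 1.95), Hs3st3b1 (1.13), Chrm1 (2.52), Ryr3 (0.69) and Itpr1 (0.52) were higher, and so was Ext1 (0.56), while Sulf2 (-1.30), Plcb1 (-0.80), Ptprm (-0.96) and Tafa5 (-0.68) were lower. Chrm1 and the gate gene Chrm2 were both known from the same control contrast, so the call for Chrm1 does not stand apart from it. Prdm8 went the other way than with Piezo2, at log2 1.22 (SE 0.19, edgeR adjusted p = 0.00231), and Tafa2 was again higher (0.54). The block left 8 higher and gave 6 lower (9.84% against 3.16% of all genes), adding Tafa3 (log2 -1.47, edgeR adjusted p = 0.0353) and Actn2 (log2 -0.85, edgeR adjusted p = 0.0212). In Foxp2-gated nuclei Chrm1 (log2 -3.37) and Ryr3 (-1.41) were lower, as was Hs3st4 (-3.35), while Itpr1 was higher (0.74). Of 62 tested relatives the Foxp2 gate had 5 called higher (8.06%) and 10 lower (16.1%), against 3.13% and 5.05% of all genes, and with the block 6 higher (9.68% against 4.18%) and 14 lower (22.6% against 6.91%). The calls that the block added were Prdm8, Hs3st3a1, Ptprk and Ptpru (lower) and Myom1 (higher). Against amacrine nuclei 15 of 64 relatives were higher (23.4%) and 14 lower (21.9%), against 14.4% and 13.9% of all genes. All 4 TAFA relatives were higher in RGC nuclei, as were Hs3st3a1 (log2 6.33) and Hs3st3b1 (3.63), whereas Ptprk (-7.32) and Hmcn2 (-2.54) were lower.

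Finally, the genotypes were compared, the question being whether loss of Piezo2 in Olig2-expressing cells and their descendants altered the 9 genes in RGCs. No gene of 17704 was called between cKO and control RGC nuclei (0% in either direction; 639 at an unadjusted p under 0.05 by edgeR, and 2 called by DESeq2). The log2 differences of the 9 genes ran from -0.21 to 0.15. Of the 9 genes 2 had a positive difference, with a median of -0.11, against 53.8% of all genes and a median of 0.01. The control arm held the Piezo2-positive nuclei in which the genes were chosen for being high. The part of that choice in these differences was not tested. Ndst4 was at 161, 182, 161 and 142 CPM in cKO and 177, 170, 182 and 183 CPM in control RGC nuclei (log2 -0.21, SE 0.06, edgeR adjusted p = 0.992). Ppp1r1c was at 25.9, 30.0, 24.4 and 21.5 CPM in cKO and 30.1, 27.6, 25.3 and 28.4 CPM in control nuclei (log2 -0.19, SE 0.09, edgeR adjusted p = 0.992). Both ranges overlapped between genotypes.

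In Chrm2-gated nuclei no gene of 11122 was called either (0%; 508 at an unadjusted p under 0.05 by edgeR, and 1 called by DESeq2). Ttn was at 342, 344, 298 and 184 CPM in cKO and 243, 226, 213 and 195 CPM in control nuclei (log2 0.35, SE 0.14, edgeR adjusted p = 0.989). Tafa4 was at 16.5, 28.0, 26.1 and 39.3 CPM in cKO and 30.8, 41.1, 32.9 and 37.6 CPM in control nuclei (log2 -0.46, SE 0.21, edgeR adjusted p = 0.989). The remaining 7 genes differed by log2 values between -0.42 (Prdm16, SE 0.29) and 0.00 (Itpr2, SE 0.10). The control arm had 624 nuclei, of which 188 had a Piezo2 UMI and so were among those in which the genes were chosen for being high. The part of that choice in the differences was not tested. With standard errors up to 0.29, differences of the size of the fold threshold could not be told from none for the scarcer genes. None of the relatives in the 8 lists was called in either comparison.

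**Figure D5:**
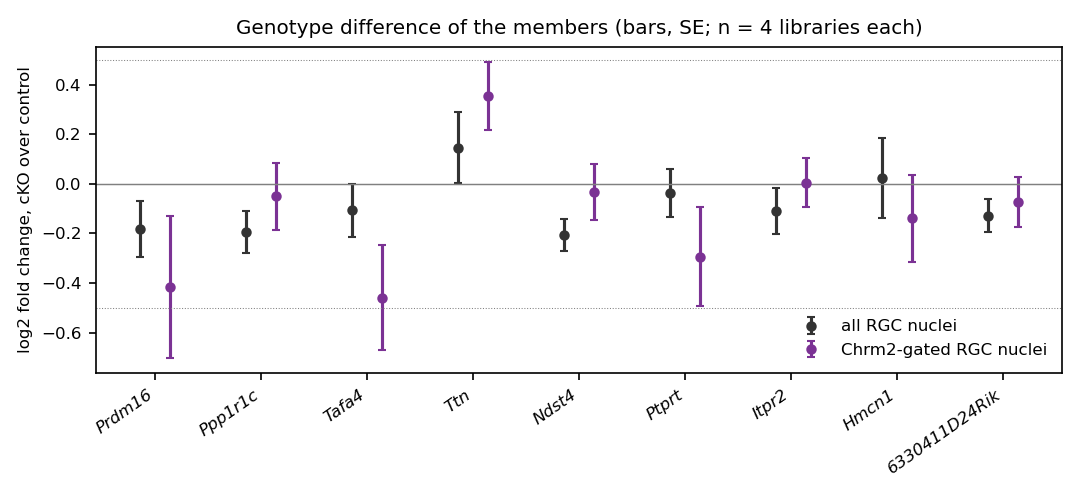
Log2 fold change of cKO over control for each of the 9 genes in all RGC nuclei (black) and in Chrm2-gated RGC nuclei (purple), with bars of 1 SE from 4 libraries a genotype. Dotted lines mark the fold threshold of 0.5, and all points lie between -0.46 and 0.35.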

How the data were processed

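Per the labels, the deposited files hold raw UMI counts of 10x 3′ libraries from Cell Ranger 7.0.0 on GRCm39, with every barcode. Whether intronic reads were counted is not given in the sources used here. The study's later steps, among them removal of ambient RNA with CellBender and cluster names, were made by the authors beyond these files and are not in the counts, so nuclei and classes were rebuilt here and can differ from the study's.

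Nuclei were called by an order-of-magnitude step for a target of 8000 nuclei plus a test against the ambient profile. They were filtered at 200 genes, 5% mitochondrial counts and 5 (mitochondrial share, 3) median absolute deviations, and doublets were removed by the highest scores of scanpy 1.11.5's Scrublet at a rate of 0.8% per 1000 nuclei. Classes needed a minimum number of distinct markers (RGC 4, amacrine 3, bipolar 4, rod 5, cone 4, Müller glia 4, horizontal 3, including Lhx1), set after the distributions of the markers were seen. Type gates needed 2 UMIs, and a nucleus may pass several.

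UMI counts were summed per library and arm, and tested with edgeR 4.0.16 (TMM, filterByExpr, quasi-likelihood, Benjamini-Hochberg over all genes, R 4.3.3) without a block; a block for the library was an alternative. The study used PyDESeq2 on such sums; here DESeq2 1.42.0 was an alternative. Genes were called at an adjusted p below 0.05 and a log2 change of more than 0.5 in size. Counts over all genes left out Piezo2 for Piezo2 status, Chrm2 in the Chrm2-gated contrasts and Foxp2 in the Foxp2 contrast. Thinned nuclei kept 2000 UMIs, and 9509 of 9684 cKO RGC nuclei reached that depth. Both arms of a contrast came from the same library, and their deviations from the arm means correlated within libraries at 0.527 to 0.752 against -0.526 to 0.153 between libraries. The edgeR and co-detection steps were first tested on simulated data. Counts were uncertain where a gene on the opposite strand could share reads. The 9 genes, relatives and marker lists were chosen with earlier results of these data known. All 9 genes are named in every comparison but those between genotypes. There the range is given, with the pair of smallest unadjusted p. Also named are the pair of highest co-detection partners per gene and called relatives from the lists. The alternatives are given at the end.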

Additional observations from a re-analysis of the deposited data

Results flagged for a closer look

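A single library stood apart from the other three of its group in 7 of 126 sets of 4 libraries examined for the 9 genes, where about 5% are expected to do so by chance. 6330411D24Rik was at 1529 CPM in Chrm2-gated nuclei of cKO replicate 13 and at 2224 to 2354 CPM in the others. Ptprt was at 67.8 CPM in RGC nuclei of the same replicate and at 53.4 to 55.7 CPM in the others. Ndst4 was at 128 CPM in Foxp2-gated nuclei of cKO replicate 10 against 107 to 108 CPM. In control libraries, Hmcn1 was at 119 CPM in amacrine nuclei of replicate 2 against 150 to 155 CPM, and Prdm16 at 6.36 CPM in Piezo2-negative RGC nuclei of replicate 1 against 5.41 to 5.49 CPM. In Müller glia, 6330411D24Rik was at 21.7 CPM in control replicate 1 against 1.56 to 3.85 CPM, and Ppp1r1c at 1.92 CPM in control replicate 2, from 1 UMI, against 0 in the others.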

How the results depend on the processing

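Values of the 9 genes kept their direction and their side of the threshold in 114 of 117 cases for Piezo2 status. They did so in 126 of 135 for the Chrm2 gate, 122 of 126 for the Foxp2 gate and all 162 against amacrine nuclei. For the gates and against amacrine nuclei these counts include control libraries, where the genes were chosen. Reversals were seen in nuclei thinned to 2000 UMIs, for Prdm16 with the Chrm2 gate (-0.27) and for Ttn between genotypes in Chrm2-gated nuclei (-0.23); there, thinning left 5 of the 9 genes to test. The cause was not tested. Thinning, which lowers counts, also gave 61 called genes for Piezo2 status, 327 for Chrm2, 640 for Foxp2 and 2963 against amacrine nuclei, and a median co-detection ratio of 1.81. With the replicate block, 613 genes were called for Piezo2 status and 795 for Chrm2, and the calls of the 9 genes were unchanged in the 4 paired contrasts. The block added 2 calls among the relatives for Piezo2 status, 2 for Chrm2, 5 for Foxp2 and 1 against amacrine nuclei and removed none. At least 2 Piezo2 UMIs gave 667 genes, and the Chrm2 gate without Piezo2-positive nuclei 314. Leaving out 1 replicate gave 192 to 256 genes for Piezo2 status (216 without replicate 11, 192 without 12, 195 without 13), 225 to 392 for Chrm2 (225 without 12) and 0 to 1 between genotypes in Chrm2-gated nuclei (1 without 13). Between genotypes DESeq2 called 2 genes in RGC nuclei and 1 in Chrm2-gated nuclei, where no filter gave 21 and a stricter class gate 1. Among nuclei with a Piezo2 UMI, a subset added after seeing the data, the median co-detection ratio was 1.15. Between genotypes no paired analysis was possible because they share no replicate numbers. Depth limits Prdm16 and Tafa4 most, with 24 to 45 and 39 to 87 UMIs per Piezo2-positive cKO arm.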
